A study of Mus musculus with 6 samples.

Results

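The cortical thymic epithelial genes described here are 10 genes known from the outer, cortical epithelium of the mouse thymus: Foxn1, Psmb11, Prss16, Ctsl, Ly75, Cd83, Tbata, Dll4, Kitl and Il7. They were chosen by name, and all 10 were found among the 20866 genes that could be named on the array. Tbata was read by 5 probes, of which the brightest was used, and every other member by 1 probe. RNA of 3 thymic cell populations, sorted from mice of 2 genotypes, had been hybridised to 6 one-colour Agilent arrays. The TNF/RelA-DKO mice lacked both TNFalpha and RelA, and the TNF-KO mice lacked TNFalpha alone, so that the loss of TNFalpha was shared by every sample. All mice were C57BL/6 and 1.5 to 2 weeks old, and their sex is not given in the labels. The populations were CD45-EpCAM+ thymic epithelial cells, CD45+EpCAM- cells, which the labels call thymic stroma, and CD4+CD25hi thymocytes. Each array held RNA pooled from 10 thymi for the CD45-EpCAM+ and CD45+EpCAM- cells and from 5 mice for the CD4+CD25hi cells. A group was therefore 1 pool on 1 array, with no replicate, and a difference between genotypes within a population has no test.

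The thymic cortex is where immature thymocytes commit to the T cell lineage and undergo positive selection on self peptides. Its epithelium is built under the transcription factor Foxn1, feeds thymocytes with Notch ligand, stem cell factor and interleukin 7, and makes its own set of selecting peptides through a dedicated proteasome subunit and dedicated proteases. RelA is a subunit of NF-kB, a family of transcription factors known in the thymus mainly for its part in forming the medullary epithelium, which lies inside the cortex and displays tissue-restricted self antigens.

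Levels are given as log2 of the scanner's background-corrected signal minus the 75th percentile of that array, so that a level of 0 equals that percentile and 1 unit is a factor of 2. A probe is called dim where the scanner software did not find it well above background. The 75th percentile signal was 108 in TNF/RelA-DKO and 370 in TNF-KO for CD45-EpCAM+ cells, the largest gap of the 3 pairs; it was 675 in TNF/RelA-DKO and 633 in TNF-KO for CD45+EpCAM- cells, and 272 in TNF/RelA-DKO and 318 in TNF-KO for CD4+CD25hi cells. The share of probes well above background was 47.3% in TNF/RelA-DKO and 66.2% in TNF-KO CD45-EpCAM+ cells, against 55.1% to 65.0% over the other 4 arrays. The targeted gene, Rela, had a level of 1.81 in TNF/RelA-DKO and 3.84 in TNF-KO CD45-EpCAM+ cells, 3.30 and 4.04 in the CD45+EpCAM- pair, and 2.66 and 4.52 in the CD4+CD25hi pair, lower in TNF/RelA-DKO each time. Where its probe lies relative to the deleted part of the gene was not checked. Epcam, Krt8 and Krt5, the epithelial markers, had a summed linear level of 176 and 174 in TNF/RelA-DKO and TNF-KO CD45-EpCAM+ cells, and at most 0.265 on the other 4 arrays. Foxp3, the factor that defines regulatory T cells, was dim on both CD45-EpCAM+ arrays and well above background on all the others. T cell markers were well above background in all 3 populations, the CD45-EpCAM+ sort included. The CD45+EpCAM- sort carried T cell, macrophage, dendritic cell and B cell markers, and of 6 fibroblast markers only Pdgfrb, Col1a1, Col1a2 and, in TNF/RelA-DKO, Dcn were well above background there.

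All 10 members were well above background on both CD45-EpCAM+ arrays, as were 11847 of the 20866 genes. For every member both of those arrays lay above the 4 others. Ly75, Ctsl, Cd83 and Tbata were well above background on all 6 arrays, Prss16 on 5 and Dll4 on 4. Psmb11, Foxn1, Kitl and Il7 were well above background on the 2 CD45-EpCAM+ arrays alone. The share of all genes with both CD45-EpCAM+ arrays highest, or read on those arrays alone, was not counted. Each population had been hybridised on its own slide, and the CD45-EpCAM+ slide had been scanned on another day than the other 2, so that population and slide cannot be told apart. In pooled RNA of this kind, fewer cells of a type and less RNA per cell cannot be told apart.

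Foxn1, the forkhead factor that drives thymic epithelial differentiation, had a level of 3.39 in TNF/RelA-DKO and 3.23 in TNF-KO CD45-EpCAM+ cells. It was dim on the other 4 arrays, with measured levels between -7.40 and -6.30. The CD45-EpCAM+ arrays thus stood far above the rest, and the genotypes lay close together within them. Against the lowest level that counted as well above background on the dim arrays, Foxn1 was at least 441-fold higher in CD45-EpCAM+ cells, relative to CD45+EpCAM- cells, and at least 254-fold higher than in CD4+CD25hi cells.

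Psmb11 encodes beta5t, the catalytic subunit that replaces its housekeeping counterpart in the proteasome of cortical epithelium. Its level was 2.48 in TNF/RelA-DKO and 2.25 in TNF-KO CD45-EpCAM+ cells, and it was dim on the other 4 arrays, at -7.48 to -5.77. It was at least 229-fold higher in CD45-EpCAM+ cells, relative to CD45+EpCAM- cells, and at least 132-fold higher than in CD4+CD25hi cells. Psmb5, the housekeeping subunit that Psmb11 replaces, did not follow this pattern. Its level averaged 5.76 ± 0.12 in CD45-EpCAM+, 5.87 ± 0.06 in CD45+EpCAM- and 5.87 ± 0.10 in CD4+CD25hi cells (SD over the 2 genotypes, n = 2 arrays each, which are not replicates).

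The promoters of Psmb11 and Kitl are shown because they are the only ones among the members that hold GACGC, the core of the Foxn1 binding motif in mice. The windows are the 250 bases before the annotated start, from RefSeq on build GRCm38.p6, where 7 of the 10 members had an entry (all but Prss16, Cd83 and Il7). Psmb11 is given whole, at chr14:54625060-54625309, forward strand, and Kitl as the stretch around its match, at chr10:100015626-100015654, forward strand, both written 5′ to 3′ with the match in capitals. In Psmb11 the capitals read GCGTC, which is GACGC on the opposite strand, at 239 and 62 bases before the start; in Kitl the match is on the forward strand at 183 bases before the start.
Psmb11: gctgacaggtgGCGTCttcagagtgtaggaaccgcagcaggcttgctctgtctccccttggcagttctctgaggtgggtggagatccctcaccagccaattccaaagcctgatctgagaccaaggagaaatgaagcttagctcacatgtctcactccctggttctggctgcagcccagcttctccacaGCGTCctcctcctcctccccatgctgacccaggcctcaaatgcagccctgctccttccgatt
Kitl: acccagacagggGACGCaccaggctcgat

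Searched on both strands, GACGC lay in 22.6% of all 32851 promoter windows of the same length, and in 2 of the 7 members. The NF-kB consensus motif, also searched on both strands, lay in none of the 7 member windows and in 3.9% of all windows. Among 12 medullary epithelial genes with an entry, 3 held the NF-kB consensus (Fezf2, Krt14 and Spib) and 3 held GACGC (Aire, Fezf2 and Tnfrsf11a). The Spib window is shown as the medullary counterpart, around its palindromic match at 180 bases before the start, at chr7:44532232-44532261 of the same build, reverse strand, with the consensus in capitals.
Spib: ccccaatggtGGGGATCCCCaaatccagat

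These matches describe letters in a window and do not show binding.

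Prss16 encodes the thymus-specific serine protease, which shapes the class II peptides of cortical epithelium. It had a level of 8.53 in TNF/RelA-DKO and 7.85 in TNF-KO CD45-EpCAM+ cells, -3.35 and -3.11 in the CD45+EpCAM- pair, and -3.57 and -4.34 in the CD4+CD25hi pair, where the TNF-KO array was dim. Each CD45-EpCAM+ value stood far above the 4 others, which lay within little more than 1 log2 unit of each other.

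Ctsl, cathepsin L, degrades the invariant chain and generates class II peptides in cortical epithelium. Its level was 9.28 in TNF/RelA-DKO and 8.36 in TNF-KO CD45-EpCAM+ cells, 1.95 and 2.97 in the CD45+EpCAM- pair, and 0.46 and 0.36 in the CD4+CD25hi pair. It was bright on all 6 arrays, and the CD45+EpCAM- arrays lay between the other populations.

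Among the cell surface members, Ly75 encodes DEC-205, an endocytic receptor used as a marker of cortical epithelium and carried by dendritic cells too. Its level was -0.22 in TNF/RelA-DKO and -1.33 in TNF-KO CD45-EpCAM+ cells, -4.81 and -4.55 in the CD45+EpCAM- pair, and -4.11 and -4.43 in the CD4+CD25hi pair. Cd83 encodes a membrane protein that slows the turnover of surface MHC class II on thymic epithelium and is also made by activated dendritic and T cells. Its level was 6.80 in TNF/RelA-DKO and 6.00 in TNF-KO CD45-EpCAM+ cells, 0.78 and 1.70 in the CD45+EpCAM- pair, and 3.53 and 4.10 in the CD4+CD25hi pair. Both genes were read in every population, and Cd83 lay higher on both CD4+CD25hi arrays than on either CD45+EpCAM- array.

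Tbata, also called Spatial, is made in thymic stroma and has been reported in mice to restrain the proliferation of thymic epithelial cells. Its level was 7.96 in TNF/RelA-DKO and 7.51 in TNF-KO CD45-EpCAM+ cells, -2.51 and -2.22 in the CD45+EpCAM- pair, and -3.61 and -3.74 in the CD4+CD25hi pair. By this brightest probe the 3 populations did not overlap, and the share of all genes without overlap was not counted. Another Tbata probe gave -3.04 in TNF/RelA-DKO and -2.77 in TNF-KO CD45+EpCAM- cells. In the CD4+CD25hi pair that probe gave -2.91 and -3.27, so that these populations overlapped.

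The 3 ligands were read mainly in the epithelial sort. Dll4, the Notch ligand that commits progenitors to the T cell lineage, had a level of 0.94 in TNF/RelA-DKO and 0.71 in TNF-KO CD45-EpCAM+ cells and -5.14 and -4.71 in the CD45+EpCAM- pair. It was dim on both CD4+CD25hi arrays, at -5.43 and -5.39. Kitl, stem cell factor, which sustains early thymocyte progenitors, had a level of -0.01 in TNF/RelA-DKO and -0.42 in TNF-KO CD45-EpCAM+ cells and was dim elsewhere. For Il7, the cytokine that keeps immature thymocytes alive, the level was 0.77 in TNF/RelA-DKO and 0.36 in TNF-KO CD45-EpCAM+ cells, and it too was dim elsewhere. Kitl was at least 38.3-fold and Il7 at least 65.9-fold higher in CD45-EpCAM+ cells, relative to CD45+EpCAM- cells. Against CD4+CD25hi cells the bounds were at least 22.0-fold for Kitl and at least 37.9-fold for Il7.

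**Figure D1:**
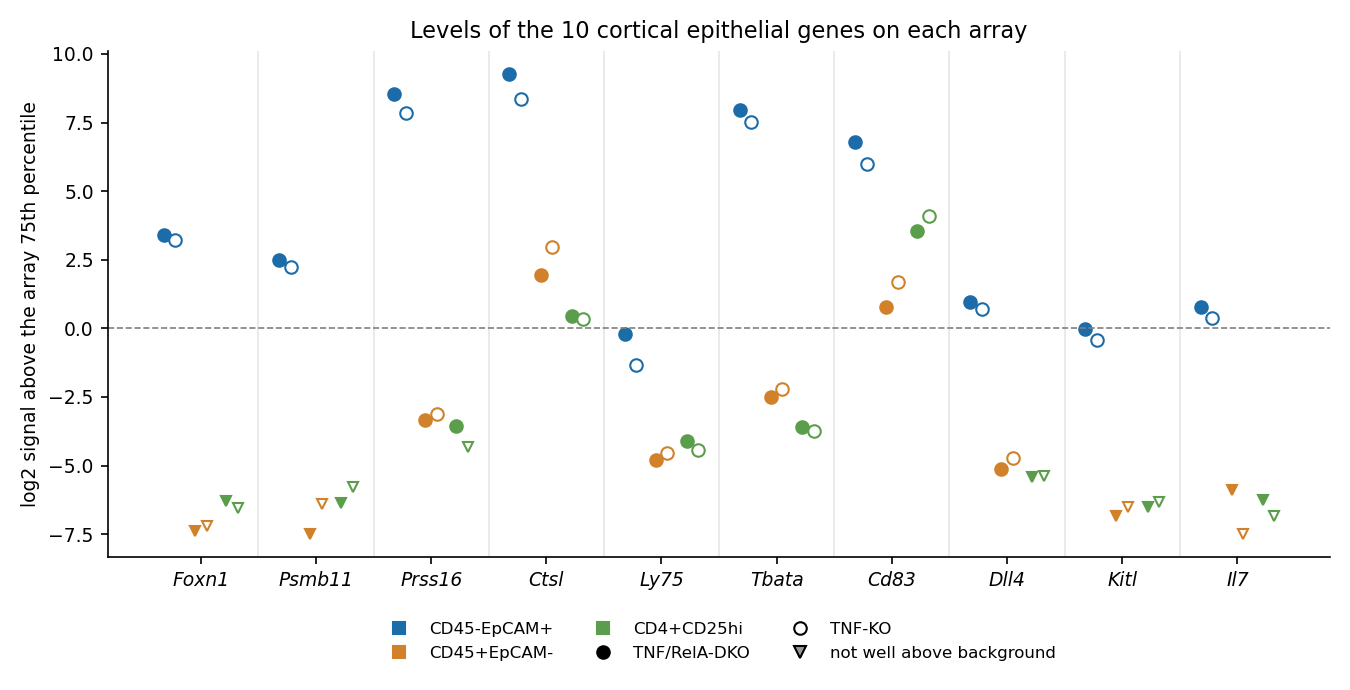
Level of each member (log2 of the signal minus the array's 75th percentile) on each of the 6 arrays, grouped by population, with TNF/RelA-DKO as filled and TNF-KO as open symbols; circles are probes well above background and triangles are dim probes. All 10 members lie highest on the 2 CD45-EpCAM+ arrays, and Psmb11, Foxn1, Kitl and Il7 are dim on the 4 others.

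Population differences were tested with limma over the 13743 genes that 3 or more arrays read well above background, with genotype as a covariate, and a gene was called at a Benjamini-Hochberg adjusted p of at most 0.05 and at least 2-fold. Psmb11, Foxn1, Kitl and Il7 did not enter the fit. The 6 members that did were all called higher in CD45-EpCAM+ cells, relative to CD45+EpCAM- cells, as were 19.4% of all genes tested, and all 6 were called higher in CD45-EpCAM+ than in CD4+CD25hi cells, as were 20.7%. A member that passed the filter on 3 arrays had to be read in a second population, so these counts leave out the 4 members most restricted to the epithelial sort. With 2 genotypes standing in for replicates, these p-values measure how far the genotype pairs differ between populations and not the spread between pools.

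For Prss16, CD45-EpCAM+ minus CD45+EpCAM- came to 11.42 on the log2 scale (SE 0.31, limma adjusted p = 0.00182), the largest among the 6 members, and Tbata followed at 10.10 (SE 0.22, limma adjusted p = 0.00173). Ctsl was higher by 6.36 (SE 0.52, limma adjusted p = 0.00405) and Dll4 by 5.75 (SE 0.21, limma adjusted p = 0.00189). Cd83 was higher by 5.16 (SE 0.48, limma adjusted p = 0.00488) and Ly75 by 3.90 (SE 0.37, limma adjusted p = 0.00502). The differences differed widely among members, and each was called in every fit that left out 1 array.

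CD45-EpCAM+ minus CD4+CD25hi was 12.15 for Prss16 (SE 0.31, limma adjusted p = 0.00116), where 1 of the 2 CD4+CD25hi values was dim, 11.41 for Tbata (SE 0.22, limma adjusted p = 0.00115) and 8.41 for Ctsl (SE 0.52, limma adjusted p = 0.00231). Dll4, dim in CD4+CD25hi cells, was at least 45.4-fold higher in CD45-EpCAM+ cells (limma adjusted p = 0.00128). Ly75 was higher by 3.49 (SE 0.37, limma adjusted p = 0.0056) and Cd83 by 2.58 (SE 0.48, limma adjusted p = 0.0182). Cd83 was the one member whose call rested on single arrays: it was lost without the TNF/RelA-DKO or without the TNF-KO CD4+CD25hi array, at limma adjusted p between 0.0795 and 0.102.

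Between the other populations, CD45+EpCAM- minus CD4+CD25hi was called for 2 members. Among all genes tested, 7.81% were called higher and 4.8% lower in CD45+EpCAM- cells. Tbata was higher in CD45+EpCAM- cells by 1.31 (SE 0.22, limma adjusted p = 0.0414), and Cd83 differed by -2.57 (SE 0.48, limma adjusted p = 0.0481), being lower in CD45+EpCAM- cells. Both calls were lost without any 1 of the 4 arrays compared. Ctsl (2.05, limma adjusted p = 0.0788), Prss16 (0.73, limma adjusted p = 0.195, with 1 of 2 CD4+CD25hi values dim) and Ly75 (-0.41, limma adjusted p = 0.490) did not pass the test, so that neither population can be placed above the other for them. Dll4, dim on both CD4+CD25hi arrays, has no measurable difference here.

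**Figure D2:**
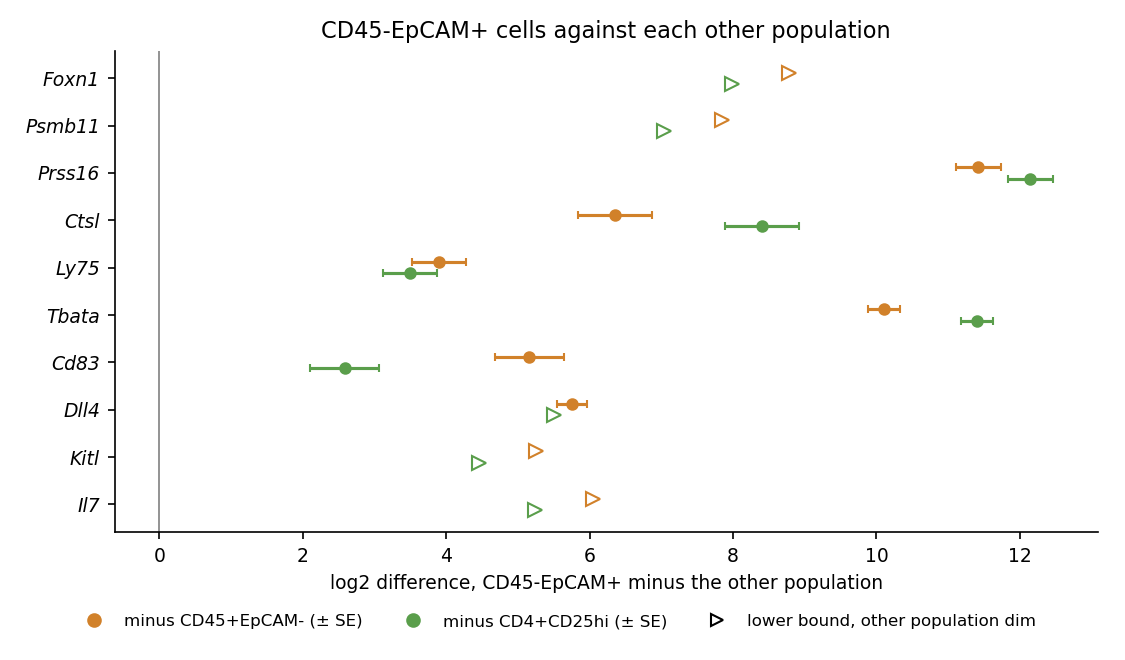
Difference between populations for each member on the log2 scale, CD45-EpCAM+ minus CD45+EpCAM- and CD45-EpCAM+ minus CD4+CD25hi, with standard errors from limma; open triangles mark lower bounds where the member was dim in the second population. All values lie above 0, from the 12.15 of Prss16 over CD4+CD25hi cells, where 1 of 2 values was dim, to the 2.58 of Cd83.

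The comparison of genotypes asks what the loss of RelA, on top of TNFalpha, went with in each population. In CD45-EpCAM+ cells all 10 members had a higher level in TNF/RelA-DKO than in TNF-KO once arrays were brought to a common scale, and without any scaling all 10 were lower, with differences of -1.62 to -0.67 beside an all-gene median of -1.65. The differences, TNF/RelA-DKO minus TNF-KO, ranged from 0.16 to 1.11 with a median of 0.43, against a median of 0.03 over 13208 genes, of which 53% lay above 0. One member, Ly75, was at least 2-fold higher in TNF/RelA-DKO, as were 5.1% of all genes, and 0 members were at least 2-fold lower, as were 9.3%. None of these differences has a replicate check. As a yardstick, the difference varied between probes of the same gene with an SD of 0.32 in this population.

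With the scaling as reported, the differences were smallest for the regulator, the proteasome subunit and the Notch ligand and largest for a surface receptor and a protease. This order did not hold under other scalings. With quantile normalisation the protease Ctsl came to 0.19, between Foxn1 at 0.17 and Dll4 at 0.26. With normexp background correction and quantile normalisation the protease Prss16 was the smallest, at 0.10. Foxn1, at 0.16, Psmb11, at 0.23, and Dll4, at 0.24, stayed within the SD between probes. Il7 differed by 0.40, Kitl by 0.42 and Tbata by 0.44, and the 5 Tbata probes gave 0.34 to 0.54. Prss16 differed by 0.68, Cd83 by 0.80, Ctsl by 0.92 and Ly75 by 1.11, the last a 2.15-fold difference. Ly75 was also among the fainter members here, with signals of 92.3 in TNF/RelA-DKO and 147 in TNF-KO CD45-EpCAM+ cells before scaling.

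**Figure D3:**
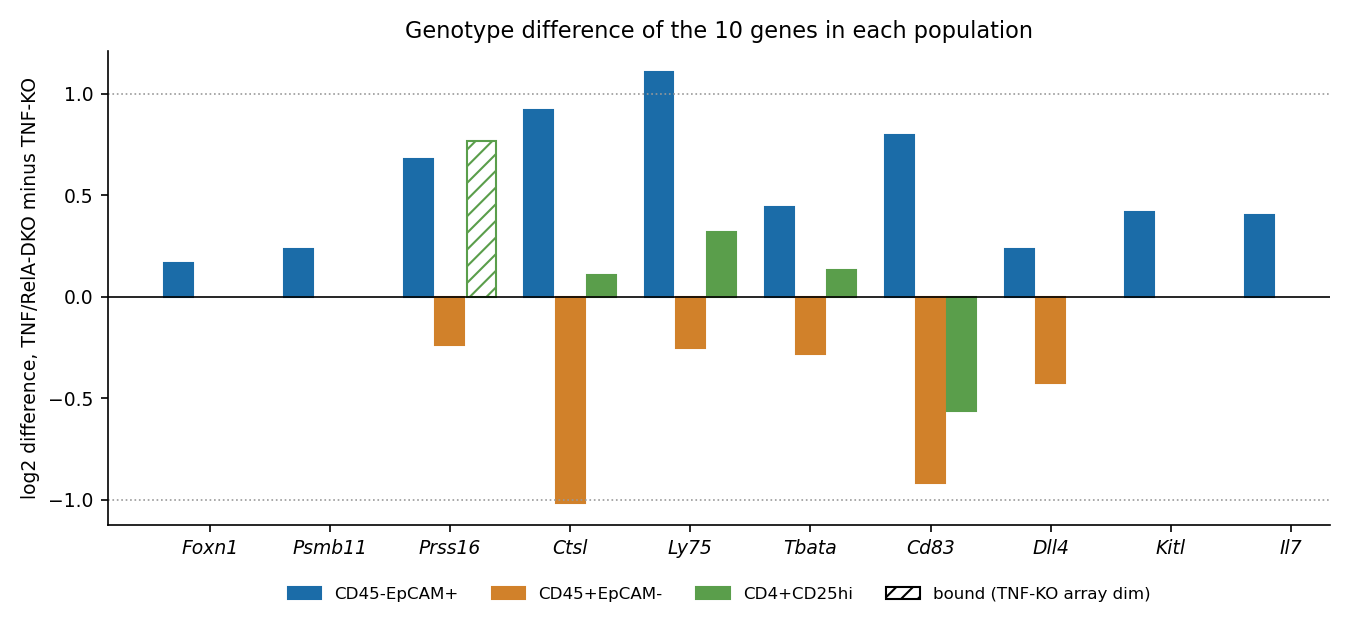
Difference TNF/RelA-DKO minus TNF-KO of each member in the 3 populations (log2 scale, scaled to each array's 75th percentile, 1 array per genotype, no error bar), with dotted lines at 2-fold and a hatched bar for a bound. In CD45-EpCAM+ cells all 10 bars lie above 0, although without scaling all 10 lie below it, and in CD45+EpCAM- cells all 6 measurable members lie below 0.

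How large the brightest members' differences were depended on how the arrays were scaled. Ctsl read a signal of 66811 in TNF/RelA-DKO and 121418 in TNF-KO CD45-EpCAM+ cells, and its difference was 0.92 as reported but 0.19 after quantile normalisation and 0.22 after normexp background correction with quantile normalisation. Prss16, with signals of 39784 in TNF/RelA-DKO and 85511 in TNF-KO, gave 0.68 as reported, 0.34 after quantile normalisation and 0.10 after normexp. Ly75 stayed between 0.94 and 1.30 over the scalings by median, loess, quantiles or normexp, so that its 2-fold call was lost with normexp and with loess (0.94 and 0.995). Foxn1 stayed between 0.11 and 0.19, Psmb11 between 0.17 and 0.24 and Dll4 between 0.18 and 0.26. Under every one of these scalings all 10 members lay above 0, and their median was 0.28 to 0.43.

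**Figure D4:**
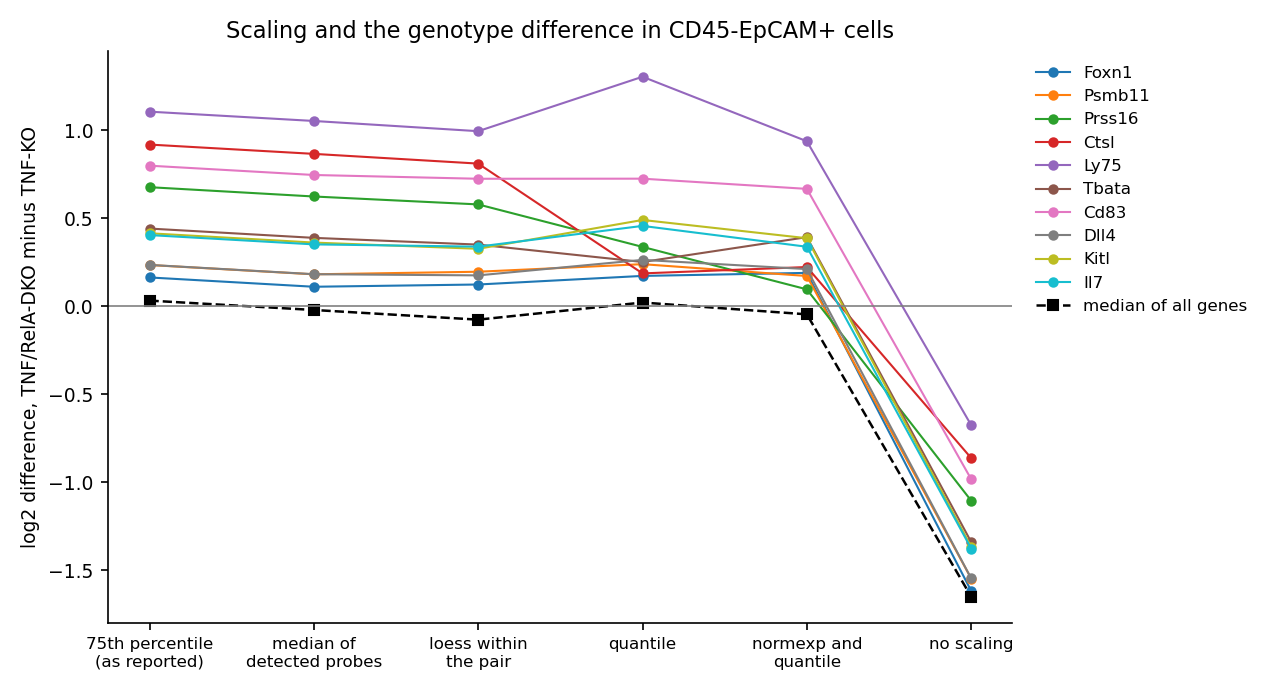
Difference TNF/RelA-DKO minus TNF-KO of each member in CD45-EpCAM+ cells under each way of scaling the arrays (log2 scale, 1 array per genotype). All 10 members lie above 0 under every scaling and below 0 with no scaling, where the median of all genes is -1.65.

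The other gene groups of the same sort give the members their setting. All 6 further cortical genes were higher in TNF/RelA-DKO than in TNF-KO CD45-EpCAM+ cells, with a median difference of 0.64 and none at 2-fold, although 1 of the 6 lay below 0 with loess, quantile or normexp scaling and all 6 without scaling. Unscaled, their median of -1.14 still lay 0.50 above that of all genes, as the members' median lay 0.30 above it. They included Ccl25, a chemokine that draws thymocyte progenitors, at 8.84 in TNF/RelA-DKO and 8.14 in TNF-KO, and Ackr4, a scavenger of that chemokine, at 2.36 and 1.38. Of 9 lineage factors of thymic epithelium, 8 were higher, and 0 without scaling, with a median of 0.41, among them Pax9 at 1.65 in TNF/RelA-DKO and 1.09 in TNF-KO. By contrast, all 12 medullary genes with a fold were lower, 9 of them by a factor of 2 or more, and their median was -1.54. Under every other scaling the medullary genes with a fold also lay below 0, although with normexp 2 of 13 lay above the all-gene median. Without scaling all 13 with a fold lay below 0, but so did the all-gene median, at -1.65, and 12 of the 13 lay below that median. Aire, which drives tissue-restricted antigen expression in the medulla, had a level of -0.86 in TNF/RelA-DKO and 1.04 in TNF-KO, and Krt5, at 6.43 and 6.44, lay closest together. The nearest values of the members and the medullary genes were 0.16 for Foxn1 and -0.01 for Krt5. Both lists were chosen with earlier results of these data known, so their separation is a description and not a test.

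Most other genes of the proteasome lay on the other side of 0 from Psmb11 in the scaled values, but by small differences. Psmb11, at 0.23, lay within the SD between probes of 0.32, and the others ranged from -0.37 to 0.11. Of 10 constitutive and immune beta subunits, 9 were lower in TNF/RelA-DKO than in TNF-KO CD45-EpCAM+ cells, with a median of -0.16, and none was 2-fold apart. Among all genes in this pair 53% lay above 0. The same subunits were lower in the other populations too, 9 of 10 in CD4+CD25hi and 10 of 10 in CD45+EpCAM- cells, each with a median of -0.14. Among 12 genes of class II processing, whose median was -0.09, 1 was at least 2-fold higher and 3 were at least 2-fold lower. The higher one was Ciita, the class II transactivator, with a difference of 1.62. The lower ones were the lysosomal proteases Ctsh (-1.84) and Ctss (-1.28) and the thiol reductase Ifi30 (-1.01). In the scaled values Ctsl, the member protease, thus lay on the other side of 0 from Ctss. Ctsb (0.15), Ctsd (0.61) and Lgmn (0.76) of the same list lay on the side of Ctsl. Without scaling Ctsl, at -0.86, and all 12 class II processing genes lay below 0. Ctss is the cathepsin that degrades the invariant chain in other antigen-presenting cells. Ctss had a level of 1.75 in TNF/RelA-DKO and 3.03 in TNF-KO CD45-EpCAM+ cells.

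**Figure D5:**
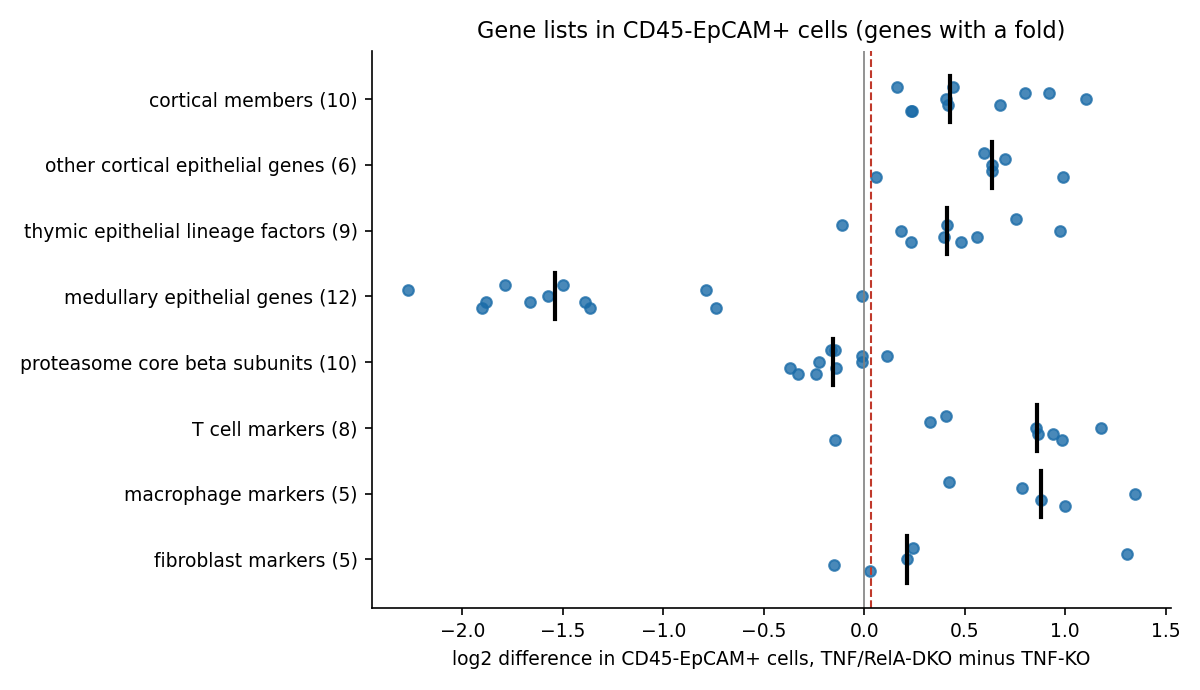
Difference TNF/RelA-DKO minus TNF-KO in CD45-EpCAM+ cells for each gene of the members and of the related gene lists (log2 scale, scaled arrays, 1 array per genotype), with a black bar at each list's median and a red dashed line at the median of all genes, 0.03. The members (median 0.43) and the other cortical genes (0.64) lie above the line and the medullary genes (-1.54) below it; with no scaling all members and other cortical genes lie below 0.

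Markers of other cells moved with the same pair. The summed linear level of 8 T cell markers was 113 in TNF/RelA-DKO and 60.6 in TNF-KO CD45-EpCAM+ cells, with all 8 well above background in both and 7 of 8 higher in TNF/RelA-DKO, or 0 without scaling. Ptprc, which encodes the CD45 used to sort against blood cells, had a level of 0.72 in TNF/RelA-DKO and -0.46 in TNF-KO. Of 4 regulatory T cell markers, Il2ra, Ctla4 and Ikzf2 were higher in TNF/RelA-DKO in the scaled values, with a median of 1.21. Foxp3 was dim in both. The sum over 6 macrophage markers was 8.51 in TNF/RelA-DKO and 5.07 in TNF-KO, that over 6 fibroblast markers 12.4 and 6.87, and that over 5 endothelial markers 9.36 and 6.27. The fibroblast sum followed Dcn, at a level of 3.16 in TNF/RelA-DKO and 1.85 in TNF-KO, while Col1a1, Col1a2, Lum and Pdgfrb differed by -0.15 to 0.24. The endothelial sum followed Kdr, at 3.17 in TNF/RelA-DKO and 2.58 in TNF-KO, a gene read also at 4.12 and 3.15 in the CD4+CD25hi pair, and Cdh5, Tek and Tie1 were dim in TNF/RelA-DKO. For 8 dendritic cell markers the sum was 71.0 in TNF/RelA-DKO and 46.7 in TNF-KO, mostly from Siglech, but Itgax, Flt3, Zbtb46 and Cd209a were dim in TNF/RelA-DKO only and Xcr1 and Clec9a in both. The epithelial sort markers differed little in sum, at 176 and 174, while Epcam alone differed by -0.63. The part of these cells in the members' differences was not tested.

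In CD45+EpCAM- cells, 6 members had a fold and all 6 were lower in TNF/RelA-DKO than in TNF-KO, with a median of -0.35, against -0.01 over 14588 genes, of which 51.2% lay below 0. All 6 remained below 0 under every scaling and with none. With normexp, however, Dll4 and Ly75 came to -0.08, Prss16 to -0.10 and Tbata to -0.17, within the SD between probes of 0.21. Dll4 was also faint here, with signals of 19.2 in TNF/RelA-DKO and 24.1 in TNF-KO before scaling. Only Ctsl was at least 2-fold lower, at 1.95 in TNF/RelA-DKO and 2.97 in TNF-KO, a difference of -1.02, as were 2.08% of all genes, and it lay just under 2-fold after quantile, loess or normexp scaling. Cd83 differed by -0.92, Dll4 by -0.42, Tbata by -0.28, Ly75 by -0.25 and Prss16 by -0.24, where the SD between probes of a gene was 0.21. The 5 Tbata probes ranged from -0.28 to -0.04.

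Dendritic cell genes moved in the same pair. Of 8 dendritic cell markers 7 were lower in TNF/RelA-DKO than in TNF-KO CD45+EpCAM- cells, 4 of them at least 2-fold, and the median was -1.02. Flt3, a growth factor receptor of dendritic cells, had a level of -1.70 in TNF/RelA-DKO and 0.14 in TNF-KO, and Itgax, their CD11c integrin, -0.54 and 0.93. Of the 12 class II processing genes 5 were at least 2-fold lower, among them H2-Ab1, at 3.62 in TNF/RelA-DKO and 5.44 in TNF-KO. All 6 macrophage markers were higher, with a median of 0.79, and the summed linear level of the dendritic cell markers was 158 in TNF/RelA-DKO and 149 in TNF-KO. That sum came almost wholly from Siglech, at a level of 6.87 in TNF/RelA-DKO and 6.89 in TNF-KO, and Ccr7, at 5.33 and 4.73, and Siglech lay higher still in CD4+CD25hi cells, at 7.42 and 7.28. The epithelial sort markers were near the bottom of the scale in both, with sums of 0.171 and 0.190. The part of dendritic cells in the differences of Ctsl, Cd83 and Ly75 was not tested.

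In CD4+CD25hi cells, 5 members had a fold, 4 of them above 0, with a median of 0.13 against -0.02 over 12936 genes, of which 47.8% lay above 0; without scaling 2 lay above 0, with the all-gene median at -0.24. No member was measured as 2-fold apart, as 2.95% of all genes were. Cd83 differed by -0.56, being lower in TNF/RelA-DKO, while Ly75 differed by 0.32, Tbata by 0.13 and Ctsl by 0.11, against an SD between probes of 0.22. Prss16, dim in TNF-KO, was at least 1.70-fold higher in TNF/RelA-DKO, near the lower end of the measurable range.

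The signs therefore differed between populations for several members, and the difference between populations was tested in a fit added after the data had been seen. It set the genotype difference in CD45-EpCAM+ cells against the mean of the other populations, with 1 residual degree of freedom. All 6 members tested had a larger difference in CD45-EpCAM+ cells than the mean of the others, which for Prss16 includes a CD4+CD25hi difference of at least 0.77 and for Dll4 rests on dim CD4+CD25hi values. The share of all genes with a larger difference in CD45-EpCAM+ cells was not counted, so the 6 members have no baseline here. In this fit 0 of 13743 genes (0%) passed an adjusted p of 0.05, while 20.4% had an unadjusted p of at most 0.05. Cd83 was the one member below that unadjusted level, at 1.54 (SE 0.25, limma adjusted p = 0.171). Ctsl came to 1.37 (SE 0.61, limma adjusted p = 0.332), Ly75 to 1.07 (SE 0.34, limma adjusted p = 0.254) and Tbata to 0.52 (SE 0.27, limma adjusted p = 0.382). Prss16 came to 0.41 (SE 0.55, limma adjusted p = 0.701).

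A further limma fit, with population as a block, estimated 1 genotype effect for all 3 populations. None of the 6 members tested passed limma's adjusted p of 0.05, and neither did any of the 13743 genes (0%); 0 members and 6.35% of all genes had an unadjusted p of at most 0.05. The estimates were 0.40 for Prss16 (SE 0.25, limma adjusted p = 0.696), 0.39 for Ly75 (SE 0.30, limma adjusted p = 0.727) and 0.10 for Tbata (SE 0.18, limma adjusted p = 0.867). They were 0.00 for Ctsl (SE 0.42, limma adjusted p = 0.998) and -0.23 for Cd83 (SE 0.40, limma adjusted p = 0.860). For each of the 6 members the measured genotype pairs lay on both sides of 0. No estimate is given for Dll4, whose CD4+CD25hi values were dim.

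On the receiving side of the member ligands, receptors were read in every population. Il7r, the interleukin 7 receptor chain, had a level of 3.53 in TNF/RelA-DKO and 1.39 in TNF-KO CD4+CD25hi cells, a 4.38-fold difference, and of -0.65 and -1.95 in the CD45-EpCAM+ pair and 1.87 and 1.36 in the CD45+EpCAM- pair. In the scaled values it was thus higher in TNF/RelA-DKO in all 3 pairs. Kit, the receptor of stem cell factor, had a level of 1.38 in TNF/RelA-DKO and 1.54 in TNF-KO CD4+CD25hi cells. Notch3 was lower in TNF/RelA-DKO CD4+CD25hi cells, at -2.12 against -0.88 in TNF-KO. The 8 of 11 receptor and ligand genes with a fold in that population had a median of -0.03, with 1 at least 2-fold higher and 1 at least 2-fold lower. In the scaled CD45-EpCAM+ pair 2 of 10 were at least 2-fold higher, and none was above 0 without scaling. They were Il7r and the Notch ligand Dll1, which had a level of -0.78 in TNF/RelA-DKO and -1.79 in TNF-KO.

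Genes that respond to Notch in thymocytes were read beside Dll4. In CD4+CD25hi cells 3 of 4 Notch targets with a fold were lower in TNF/RelA-DKO, with a median of -0.53. Ptcra, the pre-T cell receptor alpha chain, had a level of -1.74 in TNF/RelA-DKO and -0.39 in TNF-KO there. In CD45-EpCAM+ cells all 4 with a fold were higher in the scaled values and none without scaling, with a scaled median of 0.52. The other Notch targets, Hes1 and Nrarp, had no fold there, being dim in TNF/RelA-DKO and well above background in TNF-KO. Ptcra had a level of 3.34 in TNF/RelA-DKO and 2.46 in TNF-KO, beside the higher T cell marker sum of that sort. In CD45+EpCAM- cells 4 of 5 were higher, with a median of 0.16.

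The genes with the most similar profiles to 5 members were found by the root mean square difference of the centred levels over the 6 arrays, with dim values set to their array's floor. Nearest to Prss16 were Gm1987 (0.49 log2 units), Krt17 (0.56) and Tbata (0.57), the last another member. Nearest to Dll4 were Rab42 (0.16), Gstm2 (0.16) and Umodl1 (0.18). For Psmb11 they were Vangl1 (0.087) and Nkain4 (0.096), for Foxn1 Six2 (0.055), Pkp1 (0.11) and Shisal1 (0.14), and for Il7 BC021767 (0.025), Nr2f1 (0.031) and Hoxa3 (0.045). For Psmb11, Foxn1 and Il7, 4 of the 6 values are floors, so that the likeness rests on the level in CD45-EpCAM+ cells.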

How the data were processed

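The deposited scanner files hold spot intensity, made by the authors with Feature Extraction 10.5.1.1, per the file headers, while the submitters' processing notes name version 9.5. Per the labels, a low-input amplification kit gave the Cy3-labelled RNA. The authors' deposited value table is on a log2 scale. Its median offset from the values used here was at most 0.0054 in size on any array. With that offset removed, 100% of probes agreed to within 0.05. Its column medians were, TNF/RelA-DKO before TNF-KO, -2.72 and -2.84 in CD45-EpCAM+, -3.58 and -3.63 in CD45+EpCAM-, and -3.61 and -3.72 in CD4+CD25hi cells.

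Control and outlier spots were left out. Of 39429 probes 39419 were used, and their log2 processed signal was set against the array's 75th percentile. Accessions gave 1 symbol to 27472 probes, several to 35 and none to 11912, through a RefSeq table of GRCm38.p6; the design names mm9, so no probe coordinates are given. A gene was read by its brightest probe. The number of arrays limits the precision, and no probe was saturated.

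For a fold given as a bound ("at least"), a dim value was replaced by the higher of itself and the lowest signal well above background on its array. A gene had no fold in a pair where both arrays were dim. It also had none where this replacement no longer left the dim array lower. The limma fits used dim values as measured. Within a population, genotypes were compared without a test, and 2-fold differences were counted. limma 3.58.1 in R 4.3.3, with 2 residual degrees of freedom, tested populations and a common genotype effect, and was tested on simulated data. The named genes were the 10 members, all genes of the lists, Rela and the 3 nearest profiles of 5 members, of which 1 is not reported here. Members and lists were chosen with earlier results of these data known. Alternatives covered background correction (normexp on the median signal, offset 50), scaling, the dim filter, the mean over probes, the value table and leaving out each array.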

Additional observations from a re-analysis of the deposited data

Results flagged for a closer look

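The genotype difference, TNF/RelA-DKO minus TNF-KO on the log2 scale, had opposite signs in CD45-EpCAM+ and in CD45+EpCAM- cells for 5 members, each side larger than the SD between probes of a gene in its population. The values were 1.11 in CD45-EpCAM+ and -0.25 in CD45+EpCAM- cells for Ly75, 0.92 and -1.02 for Ctsl, 0.80 and -0.92 for Cd83, 0.68 and -0.24 for Prss16, and 0.44 and -0.28 for Tbata. Cd83 also had opposite signs in CD45-EpCAM+ and CD4+CD25hi cells, at 0.80 and -0.56. With 1 array per group these pairwise differences were not tested. The fit of CD45-EpCAM+ against the mean of the other populations, reported above, called no member at limma's adjusted p of 0.05. With normexp, Prss16 came to 0.10 in CD45-EpCAM+ and -0.10 in CD45+EpCAM- cells, and the CD45+EpCAM- values of Ly75 and Tbata to -0.08 and -0.17. With quantile normalisation Ctsl and Tbata came to 0.19 and 0.25 in CD45-EpCAM+ cells. These values, and the 0.22 of Ctsl with normexp, are below the SD between probes, 0.32 in CD45-EpCAM+ and 0.21 in CD45+EpCAM- cells, so that of the 5 members only Cd83 exceeded it on both sides under both settings. Without array scaling the CD45-EpCAM+ values of all 5 members fall below 0.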

How the results depend on the processing

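No paired analysis was possible because the labels give no replicate numbers, apart from the fit with population as a block, which sets the genotypes against each other within each population. The normexp alternative used the median spot signal in place of the mean, and the loess and unscaled settings were chosen after seeing the data. Of the members' genotype differences recomputed under other settings, 145 moved by less than the SD between probes and 21 moved further, besides that of Ly75 with no scaling. With no scaling all 10 members changed sign in CD45-EpCAM+ cells, among them Ly75, the one that had been at least 2-fold apart, to -0.67, and Ctsl and Tbata changed sign in CD4+CD25hi cells, as Tbata did there with normexp. In CD45-EpCAM+ cells the members at least 2-fold higher in TNF/RelA-DKO numbered 0 with normexp, loess or no scaling, against 1; with no scaling 7 were at least 2-fold lower, their median was -1.35, and 13260 genes were 2-fold apart, against 1901. In CD4+CD25hi cells 46 genes were 2-fold apart with normexp and 222 where both arrays had to be well above background, against 382, and the members' median was -0.095 with no scaling. In CD45+EpCAM- cells 0 members were at least 2-fold lower with normexp, quantile, loess or no scaling, against 1; with normexp the members' median was -0.14 and 104 genes were 2-fold apart, against 568. With no filter on dim genes, all 20866 genes entered the fit. There limma called 10 members in both contrasts of CD45-EpCAM+ cells and 8826 genes over CD45+EpCAM- cells, against 5301. CD45+EpCAM- minus CD4+CD25hi called 1 member with quantile normalisation or the mean over probes and 0 with no filter (3 at an unadjusted p of at most 0.05), and 1082 genes with normexp and 440 with no filter, against 1734. Leaving out each array in turn gave 2845 to 5862 genes for CD45-EpCAM+ minus CD4+CD25hi (5 to 6 members; fewest without either CD4+CD25hi array, 3259 and 2845), 2005 to 5830 for CD45-EpCAM+ minus CD45+EpCAM- (fewest without either CD45+EpCAM- array, 2205 and 2005), and 0 to 2273 for CD45+EpCAM- minus CD4+CD25hi (0 to 3 members). The zeros came without any 1 of the 4 arrays compared, where 2212 to 2307 genes had an unadjusted p of at most 0.05. Where 1 array of a population was left, its spread was taken from the other populations. The common genotype effect called 0 genes in every leave-one-out fit, with 520 to 1219 at an unadjusted p of at most 0.05. The cause of these shifts was not tested.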
